A study of Caenorhabditis elegans with 3 samples.

Results

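The genes described here are the heat shock protein genes of Caenorhabditis elegans, the genes of their J-domain co-chaperones and hsf-1, as seen by chromatin immunoprecipitation and sequencing (ChIP-seq) of the transcription factor MML-1. They were taken by name: every protein-coding gene whose symbol begins with hsp- or dnj-, and hsf-1, in the WBcel235 (ce11) annotation. This rule was set with earlier results of these data known. There were 52 such genes, 22 hsp genes, 29 dnj genes and hsf-1, among 19973 protein-coding genes on the 6 nuclear chromosomes. The study holds 3 biological replicates of 1 condition, whole L3 larvae of pooled males and females of strain OP198, which carries unc-119(ed3) III and the integrated transgene wgIs198. The transgene expresses MML-1 with an added tag, labelled eGFP in one field and a C-terminal GFP-FLAG in another for replicate 3. The sources used here name no promoter for the transgene and no temperature, and no group of heat-shocked or untagged animals was analysed here. Since whole animals were used, binding in 1 tissue and weaker binding in many cannot be told apart.

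Heat shock proteins are chaperones, which bind unfolded proteins and help them fold. HSP70 proteins work in cycles of ATP hydrolysis that J-domain proteins start and that HSP110 proteins, acting as nucleotide exchange factors, reset. HSP90 and the HSP60 chaperonins finish the folding of particular clients, and small heat shock proteins hold unfolded proteins without ATP. HSF-1, the heat shock transcription factor, induces many of these genes from heat shock elements, which are alternating repeats of GAA and TTC. MML-1 is the worm Mondo protein, which binds E-boxes, above all CACGTG, as a dimer with the Max-like protein MXL-2. In worms both HSF-1 and MML-1 are known for their part in long life.

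Each gene was given the region of best rank in the authors' pooled list whose summit lay between 2000 bp upstream of a transcript start and the end of the gene. The pooled list holds 30000 regions of the 3 replicates together, both peaks and background, ranked here by the authors' signal value, with rank 1 the highest. The authors' reproducible list was made from the pooled and replicate lists with the irreproducible discovery rate, a measure of how well ranks repeat. It holds the highest regions of the pooled list, down to a signal of 26.0. The signal is the authors' own value on the scale of its list. A pooled region outside that list is therefore not by itself a binding site. Replicates 1 and 2 have lists of 30000 regions and share a size range of 150 to 350 in the labels and a stock centre as source. Replicate 3 has 27021 regions, and its labels give sonication with a microtip and the submitting laboratory as source. These differences cannot be told apart from the replicate. The depth of the libraries is unknown, because the lists give no read totals.

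The strongest regions in this group lay at HSP70 genes. Of the 6 HSP70 and HSP110 genes, 4 had a region among the first 1000 of the pooled list and 2 had a reproducible peak, hsp-110 and hsp-3. The other families had no reproducible peak, and only the J-domain genes, with 2 of 29, had further regions among the first 1000. Over all 52 genes, 2 had a reproducible peak, or 3.85% (95% exact Clopper-Pearson interval 0.469 to 13.2), where 0.776% of all protein-coding genes had one by the same rule. A region among the first 1000 was found at 6 of the 52, or 11.5% (4.35 to 23.4), against 4.31% of all genes. These intervals cover only the number of genes. The genes are not replicates, and no test of the group against other genes was made.

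**Figure D1:**
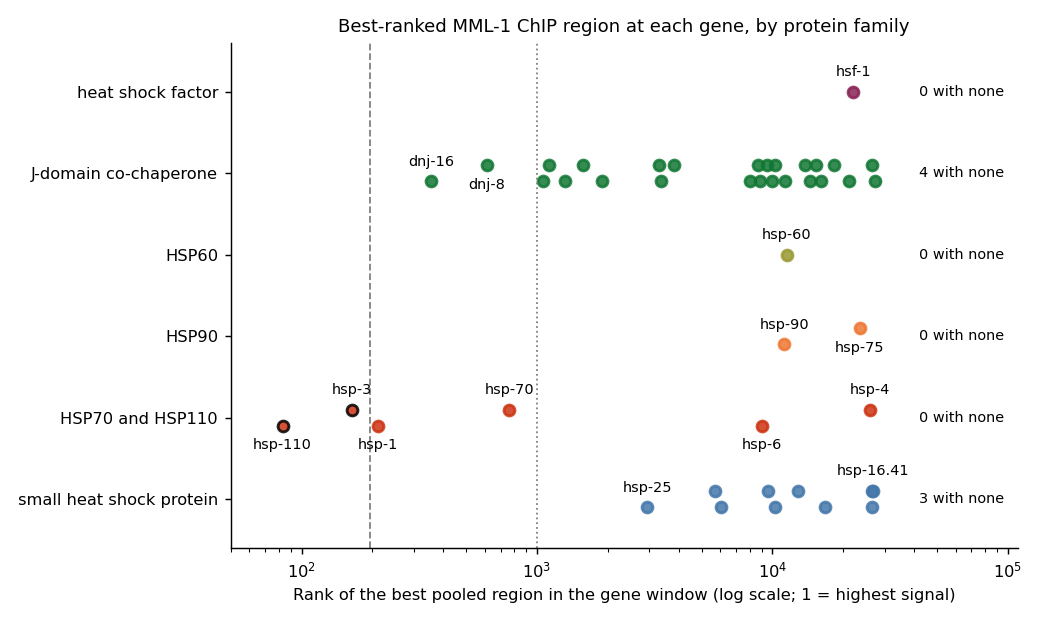
Rank of the best pooled region at each gene (x axis, log scale, 1 is the highest signal) by protein family (y axis), 1 point per gene, with black outlines for reproducible peaks, a dashed line at the last reproducible rank and a dotted line at rank 1000. The numbers at the right are genes with no pooled region. The HSP70 and HSP110 genes span ranks 83 to 25986, and the small heat shock protein genes begin at rank 2942.

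hsp-110 (WBGene00016250), which encodes the HSP110 nucleotide exchange factor, had the highest region of the group. It lay on chromosome III from 8447003 to 8447286 in ce11, intergenic, with its summit 236 bp upstream of hsp-110. Its pooled rank was 83 with a signal of 45.9. In the replicate lists the region whose summit lay within 200 bp came 50th and 465th in replicates 1 and 2, while replicate 3 showed none there. The best region of replicate 3 anywhere in the window of hsp-110 ranked 7795. Replicates 1 and 2 were thus high at this place and replicate 3 was not. The promoter is shared. The gene rpn-3, which encodes a subunit of the proteasome lid, is read in the other direction and its start lay nearer, 208 bp from the summit.

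The 201 bases around this summit are shown because they hold the sequence that HSF-1 is known to bind. Both strands were searched for GAANNTTC and TTCNNGAA, each of which is its own reverse complement, and matches are in capitals. The bases are those of the plus strand at chrIII:8447045-8447245, with the summit at base 101.
hsp-110: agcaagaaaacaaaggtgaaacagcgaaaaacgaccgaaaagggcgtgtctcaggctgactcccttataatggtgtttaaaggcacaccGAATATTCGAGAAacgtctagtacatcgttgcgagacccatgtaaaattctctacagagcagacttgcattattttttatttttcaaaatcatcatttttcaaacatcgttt
The matches GAATATTC and TTCGAGAA overlap in the shared TTC and so form an element of 3 units. It began 11 bp before the summit and ran across it. The stretch held no CACGTG and no CACATG.

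hsp-3 (WBGene00002007), which encodes one of the worm's endoplasmic reticulum HSP70 proteins (BiP), had the other reproducible peak. It lay on chromosome X from 6091992 to 6092275, with its summit 10 bp upstream of the transcript start, at pooled rank 163 and a signal of 28.3. The matching regions ranked 11904, 149 and 410 in replicates 1, 2 and 3. Here replicates 2 and 3 were high and replicate 1 was low, whereas at hsp-110 replicate 1 was high and replicate 3 had no match. Replicate 2 was high at both genes. Other regions of hsp-3 stood at pooled rank 2689, 595 bp upstream, and at rank 17784, in a coding exon. The gene C15H9.5, read in the other direction, also has the peak in its window, 1166 bp upstream of its start. The peak held no CACGTG and no heat shock element pair. It held the hexamer AGAGAC, 18 bp from the summit. That hexamer was searched because it was already known to be frequent in the reproducible peaks.

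hsp-4 (WBGene00002008) encodes the other BiP of the worm and is the classic reporter of the unfolded protein response. Its only pooled region was at rank 25986, with a signal of 6.43, in a coding exon 1349 bp into the gene and 33 bp past an internal transcript start. Matching regions came at rank 23616 in replicate 2 and 4229 in replicate 3, and replicate 1 lacked one. The paralogues hsp-3 and hsp-4 thus stood at ranks 163 and 25986 of one list.

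hsp-1 (WBGene00002005), the constitutive cytosolic HSP70 (HSC70), had a region just below the reproducible list, at rank 211 with a signal of 25.1. It lay on chromosome IV from 17278397 to 17278680, intergenic, 420 bp upstream, and in the window of no other gene. The replicate ranks were 9729, 247 and 5037, so that replicate 2 alone was high. The best region in the whole window of hsp-1 ranked 3580 in replicate 1 and 2253 in replicate 3.

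The bases upstream of hsp-1 and hsp-3 are shown for comparison with hsp-110. For hsp-1 they are the plus strand at chrIV:17278439-17278639, with the summit at base 101 and the GAANNTTC match in capitals. For hsp-3 they are the 150 bases upstream of the start at chrX:6092125-6092274 on the plus strand, with the summit at base 10 and AGAGAC in capitals. The gene hsp-3 is read on the minus strand, so its start lies to the left.
hsp-1: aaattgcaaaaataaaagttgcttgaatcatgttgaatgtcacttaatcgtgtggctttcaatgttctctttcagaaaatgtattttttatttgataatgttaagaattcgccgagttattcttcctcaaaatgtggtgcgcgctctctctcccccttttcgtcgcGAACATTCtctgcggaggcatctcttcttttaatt
hsp-3: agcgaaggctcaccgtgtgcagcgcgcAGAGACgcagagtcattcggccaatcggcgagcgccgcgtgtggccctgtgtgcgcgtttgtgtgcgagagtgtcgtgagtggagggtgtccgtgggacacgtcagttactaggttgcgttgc
The element pair of hsp-1 began 66 bp from the summit and was a single pair, where hsp-110 had 3 units at the summit.

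**Figure D2:**
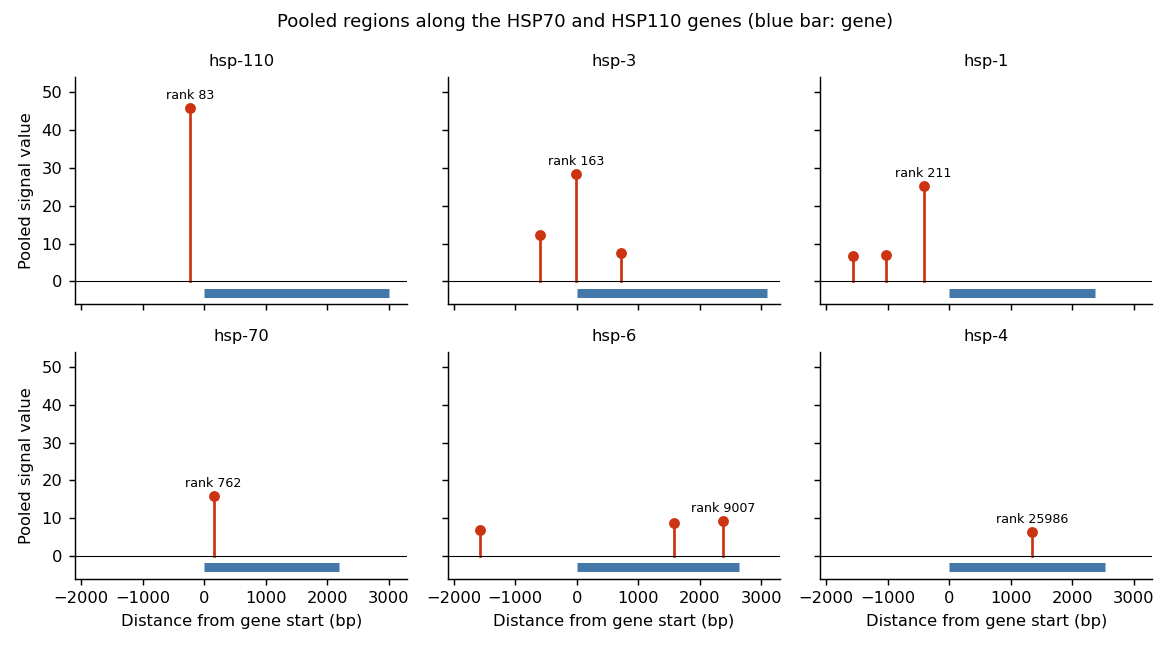
Pooled regions in the windows of the 6 HSP70 and HSP110 genes, as the authors' pooled signal value (y axis) against the distance of the summit from the gene start in bp (x axis, in the direction of the gene). Each point is 1 region, the best of each gene has its rank, and the blue bar is the gene. The best regions of hsp-110, hsp-3 and hsp-1 lie upstream, those of hsp-6 and hsp-4 within the gene.

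The remaining HSP70 genes were lower. hsp-70, a heat-inducible cytosolic HSP70 on chromosome I, had a region at rank 762 with a signal of 15.9, in its intron 149 bp past the start and also in an intron of uggt-2. Its matches stood at 3704 and 3803 in replicates 1 and 2, with none for replicate 3, so that its pooled rank was better than its rank in each replicate. It held CACATG, an E-box variant, 60 bp from the summit. hsp-6, the mitochondrial HSP70 and the usual reporter of mitochondrial unfolded protein stress, had its best region at rank 9007 in the 3′ UTR, nearer to the start of adss-1. A region of hsp-6 at rank 10636, in a coding exon, held CACGTG, and no replicate list had a region within 200 bp of it.

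Among the 29 J-domain genes, 25 had a pooled region, where 74.6% of all protein-coding genes had one. Their ranks ran from 355 to 27306 with a median of 8859, and the median over all genes with a region was 9777. The best was at dnj-16, at rank 355 with a signal of 20.1, on chromosome III from 4192901 to 4193184. It ranked 220 and 2727 in replicates 1 and 2 and was absent from replicate 3. Its summit lay in a coding exon of dnj-16, 1495 bp past a start, and 766 bp upstream of xbp-1, which lies next to dnj-16 and whose start was the nearest. xbp-1 encodes the spliced transcription factor of the endoplasmic reticulum stress response. The next was dnj-8, at rank 611 with a signal of 16.9, 563 bp upstream of the gene and within a coding exon of epg-5, an autophagy gene. It ranked 393 and 214 in replicates 1 and 2 and was also absent from replicate 3. These were the 2 J-domain genes with a region among the first 1000, and at both the region overlapped the coding sequence of a gene.

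A further 5 J-domain genes had regions from rank 1056 to rank 1891. dnj-5 stood at rank 1056, 836 bp upstream, with ranks 1988 and 4756 in replicates 1 and 2 and none in replicate 3. dnj-20, the worm ERdj3, stood at rank 1121 in an intron, where replicate 1 gave rank 914, replicate 3 gave 24037 and replicate 2 gave none. dnj-26 stood at rank 1309, 996 bp upstream, and had a matching region in replicate 2 alone, at rank 1093. dnj-13, the worm counterpart of the HSP40 gene DNAJB1 and a known heat-inducible gene, stood at rank 1566, 306 bp upstream, with a matching region in replicate 1 alone, at rank 307. It held 1 heat shock element pair and 1 CACATG. dnj-1 stood at rank 1891, 343 bp upstream, with ranks 4226 and 29935 in replicates 1 and 2. Of these 5, dnj-20 alone had a match in replicate 3.

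The dnj-5 region is shown because AGAGAC occurs in it on both strands, once 3 bp past the summit. The bases are the plus strand at chrII:6859057-6859167, with the summit at base 81 and AGAGAC or its reverse complement in capitals.
dnj-5: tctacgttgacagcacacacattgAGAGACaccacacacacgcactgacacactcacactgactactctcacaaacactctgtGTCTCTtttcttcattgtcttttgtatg
Of the 10 genes of best rank, hsp-3 and dnj-5 alone held AGAGAC. Over the first 1000 pooled regions it lay at 26.3%, and 10 genes are too few to set against that share.

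The other J-domain genes lay further down. dnj-27, the worm ERdj5, stood at rank 3378, and dnj-25, the worm auxilin, at rank 3813. dnj-10, the mitochondrial counterpart of human DNAJA3, had rank 8859, but its matching region ranked 633 in replicate 3 and 21103 in replicate 1. dnj-12, a type A J-domain protein, had rank 14455 and ranked 490 in replicate 2 and 27773 in replicate 1, at a place nearer to the start of mtx-1. dnj-7, the worm P58IPK, had rank 18254, and dnj-14, the cysteine string protein, had the lowest rank of the group, 27306. dnj-4, dnj-22, dnj-23 and dnj-29, the last the worm SEC63, had no pooled region in the window, although each had a region in at least 1 replicate list. The best of those was at dnj-23, at rank 1016 in replicate 2. dnj-21 and dnj-18 stood at ranks 15391 and 26446. The last 10 genes, dnj-2, dnj-3, dnj-9, dnj-11, dnj-15, dnj-17, dnj-19, dnj-24, dnj-28 and dnj-30, stood between rank 3293 for dnj-9 and rank 21187 for dnj-15. Among them dnj-24 had a region at rank 464 of replicate 1, in an intron, whose pooled counterpart was only at rank 28886.

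The small heat shock protein genes had no region among the first 1000, where 4.31% of all protein-coding genes had one. With 13 genes, that absence is not a result about the family. Of 13, 10 had a pooled region, against 74.6% of all genes. Their ranks ran from 2942 to 26846 with a median of 11552, and the median over all genes with a region was 9777. The best was hsp-25, at rank 2942 with a signal of 12.03, 1193 bp upstream, with rank 1142 in replicate 1 and no match in replicates 2 and 3. hsp-16.41 and hsp-16.2, a divergent pair strongly induced by heat, share the region between them, which lay 78 bp upstream of hsp-16.41 at rank 26846 with a signal of 6.35. The best region of hsp-16.2 was another, at rank 12843 and 1391 bp upstream. In the second hsp-16 cluster, hsp-16.49 and hsp-16.48 had regions at ranks 6037 and 16685, both over 1500 bp upstream, and hsp-16.1 and hsp-16.11 had none. The genes of that cluster are near-identical copies, and the sources used here do not say how reads matching more than 1 place were treated, so their regions are uncertain. hsp-12.6, a target of DAF-16 and HSF-1 in long-lived animals, shared with hsp-12.3 a region at rank 26451, 60 bp upstream of hsp-12.6. hsp-43, hsp-17 and hsp-12.2 had their best regions at ranks 5697, 9606 and 10262. hsp-12.1 had no region in the pooled list or in any replicate list. F08H9.3 and F08H9.4, which RefSeq but not Ensembl names hsp-16.20 and hsp-16.21, stood at rank 1979, above hsp-25, and are not among the 13.

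The 220 bases between hsp-16.2 and hsp-16.41 are shown against those of hsp-110, since they too hold heat shock elements but lie in a region of low rank. They are the plus strand at chrV:1804958-1805177, with the pooled summit at base 143 and the GAANNTTC and TTCNNGAA matches in capitals.
hsp-16.41: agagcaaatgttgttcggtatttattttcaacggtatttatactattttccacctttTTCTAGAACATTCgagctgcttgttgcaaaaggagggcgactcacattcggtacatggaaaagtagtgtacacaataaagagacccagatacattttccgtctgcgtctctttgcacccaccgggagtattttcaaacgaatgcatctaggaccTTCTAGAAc
The left match has 3 units and began 85 bp before the summit. The right match began 69 bp after it and runs on past the start of hsp-16.41, where a second pair completes 3 units. The rank was 26846 here and 83 at hsp-110.

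The remaining chaperone genes and the factor itself were low in the list. hsp-90 (WBGene00000915), the cytosolic HSP90, had 1 region, at rank 11243 with a signal of 8.69, in an intron and 313 bp upstream of a start. It held 2 heat shock element pairs, the nearer 13 bp from the summit. hsp-75, the mitochondrial HSP90, had rank 23530. hsp-60, the mitochondrial chaperonin, had rank 11536, in an intron 1446 bp past the start. The matching region ranked 712 in replicate 1 and was absent from replicates 2 and 3. hsf-1 (WBGene00002004) had a single pooled region in a window of 11579 bp, at rank 22008 with a signal of 6.91, in a coding exon. It matched a region of replicate 2 at rank 19106 and none of replicates 1 and 3.

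Taken over the whole group, the bulk of the genes was placed much as other genes were. A pooled region was found at 45 of 52, or 86.5% (exact interval 74.2 to 94.4), and at 74.6% of all protein-coding genes. The median best rank was 9606 over the 45 genes and 9777 over the 14895 genes with a region. The upper end differed more. Of the 52 genes, 11, or 21.2%, had a rank of 2000 or better, against 9.0% of all genes. The authors' −log10 q-values of these regions ran from 2.75 at hsp-110 to 0.82 at dnj-1. From dnj-5 at rank 1056 downwards they were 1.23 or less. All 11 were HSP70 or J-domain genes, families that hold 6 and 29 of the 52 members. This holds for the symbols of Ensembl. RefSeq also names F08H9.3 and F08H9.4 as hsp-16.20 and hsp-16.21, small heat shock protein genes, and both had a region at rank 1979. They were not counted as members. The median window was 4303 bp for the group and 4024 bp for all genes. Among the 10221 genes with windows between the quartiles of the group, 3197 and 5706 bp, 0.499% had a reproducible peak and 3.31% a region among the first 1000. The 26 members in that range included all 6 with a region among the first 1000.

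**Figure D3:**
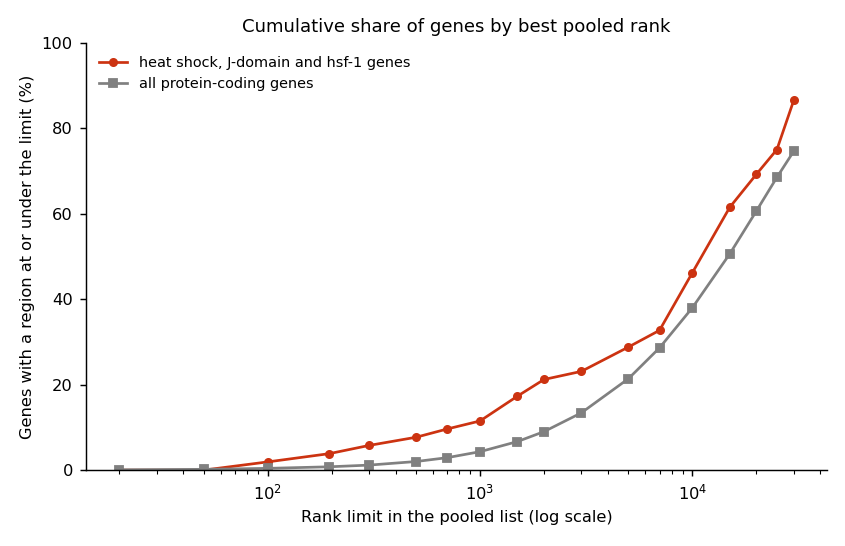
Share of genes (y axis, in percent) whose best pooled region has at most a given rank (x axis, log scale), for the 52 heat shock, J-domain and hsf-1 genes (red circles) and all 19973 protein-coding genes (grey squares). At rank 1000 the shares are 11.5% and 4.31%, and at rank 30000 they are 86.5% and 74.6%.

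Best regions lay upstream of the gene for 25 of the 45, or 55.6%, and for 48.3% of all genes with a region. The 45 are counted by gene and are 44 distinct regions, because hsp-12.3 and hsp-12.6 have the same one. The shares and intervals over 45 count it for each of these genes. Of the 45, 10 lay in coding exons, 8 in introns and 2 in 3′ UTRs, or 22.2%, 17.8% and 4.44%. Over all genes with a region these shares were 25%, 21.4% and 2.94%. The best regions of 28 members, or 62.2%, also fell in the window of at least 1 other gene, against 49.4% over all genes with a region. In 2 of the 6 genes with a region among the first 1000, hsp-110 and dnj-16, the nearest start belonged to another gene.

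In the group as over all genes, most genes placed high by 1 replicate were not placed high by another. Over all genes, 2258 had a region among the first 1000 of any replicate and 399 in at least 2. A region among the first 1000 of its own list was found for 7, 6 and 3 members in replicates 1, 2 and 3. The shares were 13.5%, 11.5% and 5.77%, or 10.3% ± 4.0 (SD, n = 3), where all genes gave 4.59%, 4.90% and 4.44%, or 4.64% ± 0.237 (SD, n = 3). In any replicate there were 13 members, or 25%, against 11.3% of all genes. In at least 2 replicates there were 3, hsp-110, hsp-3 and dnj-8, or 5.77%, against 2.00% of all genes. No member had such a region in all 3 replicates. The share of all genes for all 3 was not counted, and it cannot exceed the 2.00% for at least 2. With a share that low and a group this small, the absence is not a result about the group. In replicate 3 the 3 members were hsp-3, dnj-10 and hsp-12.2. The last ranked 327 at a place 3 bp upstream of the gene that no other list had within 200 bp.

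The best pooled regions were then matched to the replicate lists. Of the 45, 30 had a region of replicate 1 within 200 bp of the summit, or 66.7%, 24 of replicate 2, or 53.3%, and 14 of replicate 3, or 31.1%. Over all genes with a region the shares were 55.4%, 49.5% and 37.1%. Only hsp-3 and hsp-1 matched in all 3, which is 4.44% of the 45 against 7.32% of all genes with a region. Among the 10 genes of best rank, 9 matched in replicate 1, 8 in replicate 2 and 3 in replicate 3.

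**Figure D4:**
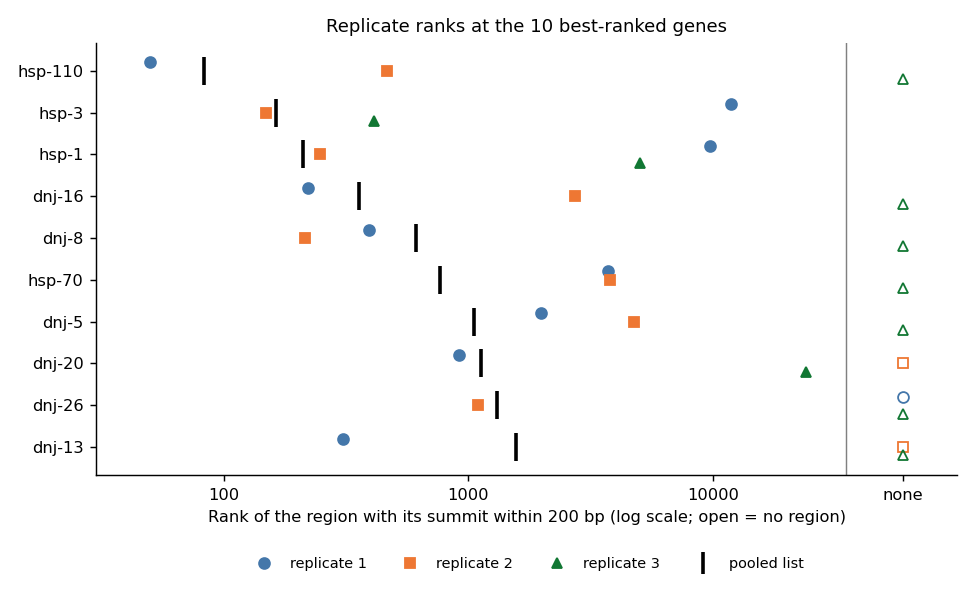
Rank of the matching region in each replicate list (x axis, log scale) for the 10 genes of best pooled rank (y axis), as filled symbols by replicate, open symbols at the right where no region lay within 200 bp, and a black bar for the pooled rank. hsp-110 is at 50 and 465 in replicates 1 and 2 with none in replicate 3, and hsp-3 at 11904, 149 and 410.

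When replicate 3 was left out, and regions shared by replicates 1 and 2 were ranked by their mean rank, hsp-110 and dnj-8 were among as many top regions as the reproducible list holds and 9 members were among the first 1000. When replicate 1 was left out, hsp-3 was among that many and hsp-1 and hsp-3 among the first 1000. When replicate 2 was left out, no member was among that many and hsp-3 alone was among the first 1000. Each reproducible peak of the group was thus high in 2 of the 3 replicates, hsp-110 in replicates 1 and 2 and hsp-3 in replicates 2 and 3, and the lists of shared regions held 4716 to 5723 regions in place of 30000.

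The E-box CACGTG was about as rare at these regions as at those of other genes. It lay within 100 bp of the summit at 2 of the 45 best regions, or 4.44% (exact interval 0.543 to 15.1), and at 4.94% of those of all genes. Over all reproducible peaks it lay at 59.5%. Over the first 1000 pooled regions it lay at 23.2%. None of the 6 members with a region among the first 1000 held it, but 6 genes are too few to set against that share. The 2 members with CACGTG were dnj-21, the worm TIM14 of the mitochondrial import motor, at rank 15391, and dnj-18 at rank 26446. The variant CACATG lay at the best regions of 5 members, or 11.1%, against 7.97% of all pooled regions and 30.8% of the reproducible peaks. These were hsp-70, dnj-13, dnj-19 at rank 8043, and hsp-12.3 and hsp-12.6 through their shared region at rank 26451.

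The dnj-18 stretch is shown as an example of the letters CACGTG and not of a binding site. Its region had a signal of 6.38, where the lowest in the pooled list was 6.01, and a −log10 q-value of 0.08. It matched a region of replicate 2 alone, at rank 16603. The bases are the plus strand at chrIII:4696376-4696406, with CACGTG in capitals.
dnj-18: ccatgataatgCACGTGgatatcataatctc
It began 89 bp before the summit and was nearer to the start of T04A8.7.

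Heat shock element pairs, either GAANNTTC or TTCNNGAA, lay within 100 bp of the summit at 18 of the 45 best regions, or 40.0% (exact interval 25.7 to 55.7). They lay at 22.8% of the best regions of all genes, at 22.4% of all 30000 pooled regions and at 12.8% of the reproducible peaks. By family they were at 12 of 25 J-domain genes, 3 of 10 small heat shock protein genes, 2 of 6 HSP70 and HSP110 genes and 1 of 2 HSP90 genes. Elements of 3 units were at hsp-110, dnj-30 and hsp-16.41, or 6.67% (exact interval 1.40 to 18.3), against 1.20% of all genes. They lay at 1.09% of all pooled regions and at 3.08% of the reproducible peaks. The pooled ranks of the 3 members were 83, 10302 and 26846. AGAGAC was at 7 of the 45, or 15.6% (exact interval 6.49 to 29.5), against 9.31% of all genes and 37.9% of the reproducible peaks. A match is a description of the letters and says nothing of which factor was bound.

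**Figure D5:**
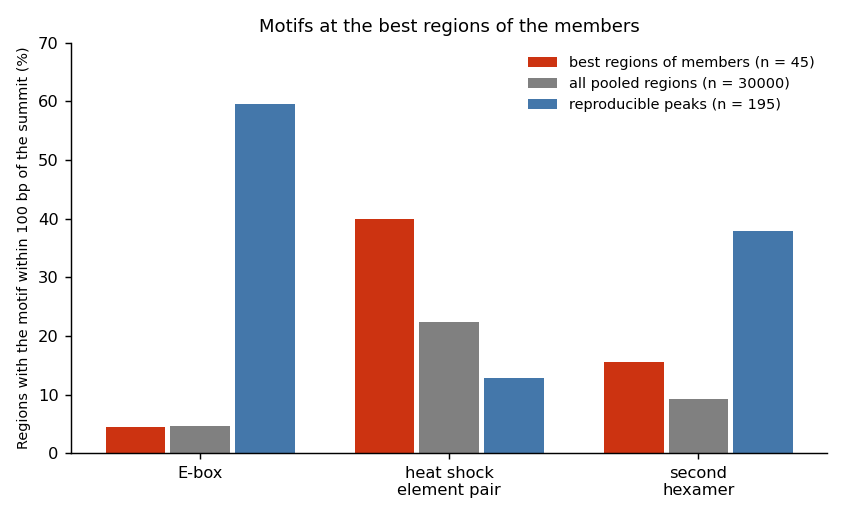
Share of regions with a motif within 100 bp of the summit (y axis, in percent, from 0) for the 45 best regions of the group, all 30000 pooled regions and the reproducible peaks. The 45 are counted by gene and are 44 distinct regions. From left to right the groups of bars are CACGTG, either heat shock element pair, and AGAGAC, and the red bars stand at 4.44%, 40.0% and 15.6%.

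Other genes of protein folding and turnover were placed by the same rule, from lists of 88 genes in 7 groups. The lists were chosen with earlier results of these data known. Over all protein-coding genes, 0.776% had a reproducible peak and 4.31% a region among the first 1000. Of the 33 proteasome genes, 1 had a reproducible peak, rpn-3, through the region it shares with hsp-110, and the next were pbs-4 at rank 1098 and rpn-11 at rank 2068. Of the 8 subunit genes of the CCT chaperonin, none had a reproducible peak. cct-5 stood at rank 757 in an intron, cct-8 at rank 1064 and cct-4 at rank 1958. Of the 6 prefoldin genes, pfd-1 had a reproducible peak at rank 43, with ranks 54, 54 and 37 in the replicates. It lay 906 bp upstream of pfd-1 on chromosome IV, 11149065 to 11149348, and also in the windows of pigq-1, C08F8.2 and F01G4.6. The prefoldin genes pfd-5 and pfd-6 followed at ranks 9615 and 14356.

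Of 13 co-chaperone genes outside the dnj genes, unc-23 had a reproducible peak, at rank 185 with a signal of 26.5, on chromosome V from 8936157 to 8936440 and 60 bp upstream. unc-23 encodes a BAG2-like partner of HSP70. Its matches ranked 401, 1427 and 283, so that it was present in all 3, and it held 1 heat shock element pair and no CACGTG. fkb-6, at rank 922, and hip-1, at rank 2142, came next. Among 6 genes listed as regulators of HSF-1 or partners in its targets, daf-16, the FOXO gene, had a reproducible peak at rank 22 with CACGTG, in an intron. ddl-1, whose product holds HSF-1 inactive, stood at rank 3914 and pqm-1 at rank 7694.

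Genes of endoplasmic reticulum folding and stress were the highest of these lists. Of the 14, 5 were among the first 1000, against 4.31% of all protein-coding genes. Their median rank was 2847 over the 13 with a region, close to the 3060 of the co-chaperone list. cnx-1, which encodes the lectin chaperone calnexin, had a reproducible peak at rank 103 with CACGTG, 1895 bp upstream on chromosome III, 9818890 to 9819173. Its ranks were 150, 310 and 91 in the replicates. xbp-1, at rank 355, and pek-1, the PERK kinase gene, at rank 388, followed. The disulphide isomerase genes pdi-1 and pdi-2 stood at ranks 534 and 956, and pdi-1 held CACGTG. The xbp-1 region is the one in the coding exon of dnj-16. None of 8 genes of mitochondrial folding and stress was among the first 1000, but 8 genes are too few to set this against the 4.31% of all genes. Of these, ubl-5, atfs-1 and dve-1 were the best at ranks 1567, 2121 and 4217. The lists are small and, like the group itself, were not tested against other genes.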

How the data were processed

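MML-1 ChIP-seq regions from 3 biological replicates were analysed. Per the labels, the lists are in the ce10 and ce11 builds. The ce10 lists were not used, as the annotation was of ce11. The authors deposited a signal value and a −log10 q-value per region in each list. According to the notes deposited with the samples, regions were derived from each replicate's alignment and from the 3 together, against a control alignment, and the reproducible list from those lists by the irreproducible discovery rate. For the aligner, the caller and the threshold the answer is: not given in the sources used here.

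Regions were ranked by signal, and summits placed at start plus offset, 1-based. Genes and transcript starts came from Ensembl release 115, and sequences from the WBcel235 assembly in RefSeq. Where Ensembl gave a symbol to 2 genes, RefSeq symbols at the same coordinates were used for 2 members. Replicate summits within 200 bp were matched, and the nearest taken. Motifs were searched on both strands within 100 bp of summits. Counts were set beside those over all protein-coding genes by the same rule. No test was made. Intervals are 95% exact Clopper-Pearson intervals from SciPy 1.17.1 and cover counting error over genes only. Software was Python 3.11.15, numpy 2.4.6 and matplotlib 3.10.9. The assignment was tested on simulated regions.

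The members, lists and motifs were chosen with earlier results of these data known. Named genes are members with a reproducible peak or a region among the first 1000, the 10 of best rank, those with CACGTG, main members of each family whatever their values, and the 3 of best rank in each list. Other members are named to account for the group, after their values were seen. Alternatives varied the window, the shared regions, the rank limits, the motif and matching distances, the replicates and the gene names.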

Additional observations from a re-analysis of the deposited data

How the results depend on the processing

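The count of 2 members with a reproducible peak was the same in each of the 3 other windows and with RefSeq symbols, which were tried after seeing the data. It was 1 when a region counted only for the gene with the nearest start, which gives the hsp-110 region to rpn-3, and 1 among the stronger reproducible peaks, those at or above the median. It was 4 among the first 500 pooled regions. The count of 6 members among the first 1000 was 11 at a rank limit of 2000. Members with a pooled region numbered 27 when the window ran from 1000 bp before a start to 200 bp after it. Members with CACGTG numbered 0 in that window, 0 with 1000 bp upstream and the gene body, and 0 within 50 bp of the summit. With 1 replicate left out, regions shared by the other 2 were ranked anew, so the lists were shorter by construction. This gave 0 to 2 members among as many top regions as the reproducible list holds, 1 to 9 among the first 1000, 10 to 19 with any region, a median rank of 1154 to 2578 and 0 with CACGTG. Best regions matched in the lists kept numbered 5 to 14, where all 3 lists gave 2. The causes of other changes were not tested. No paired analysis was possible because there is 1 group. Depth is unknown, so a region absent from a replicate cannot be set against its reads.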
